A study of Mus musculus with 4 samples.

Results

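Plasmacytoid dendritic cells were taken from a single-cell RNA library of control bone marrow cells sorted as CD45.2+ and B220lo 10 weeks after transplantation. They were chosen by their UMIs of 3 genes: at least 2 of Siglech, at least 1 of Bst2 and fewer than 2 of Cd79a. Barcodes also had to lack an assembled immunoglobulin contig and to pass 3 quality limits, namely 1000 UMIs or more, 500 genes or more, and no more than 10% of UMIs from mitochondrial genes. A UMI is a molecular tag that counts 1 captured RNA molecule. This rule found 1352 cells among the 16329 barcodes of the library that passed those limits, which is 8.28% (exact binomial 95% interval 7.86% to 8.71%), and among the 55216 such barcodes of the whole series. The other 3 libraries were made from CD45.2+ Kit+ bone marrow at the same 10 weeks: 1 from control cells, 1 from cells with Mll3/4 deleted and 1 from Mll3/4SI cells, an abbreviation that the labels do not expand. Mll3 and Mll4 are histone methyltransferases that act at enhancers. The labels do not give the strain, age or number of the mice, the Cre driver, or the genotype of the control. Each group was 1 library, so no comparison below has a replicate check. No p-value is given, and every interval covers counting error only.

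Plasmacytoid dendritic cells are immune cells of bone marrow and lymphoid organs that are known for releasing large amounts of type I interferon when the endosomal receptors TLR7 and TLR9 meet viral RNA or DNA. Their identity depends on the E protein Tcf4, a basic helix-loop-helix factor that binds E-box motifs, while its antagonist Id2 and the factor Batf3 belong to conventional dendritic cells. In the mouse they carry B220 on the surface, as B cells do, so a B220lo gate can hold both. Some arise from lymphoid progenitors, and rearranged immunoglobulin heavy-chain genes have long been known in part of them.

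Siglech, a sialic acid-binding receptor, and Bst2, or tetherin, chose the cells, so their values are a description. Siglech lies on chromosome 7 from 55768178 to 55778925 and Bst2 on chromosome 8 from 71534255 to 71537456 (GRCm38). Siglech ranged from 2 to 53 UMIs per cell with a median of 13, and Bst2 from 1 to 72 with a median of 26. The rule also set Cd79a, a signalling chain of the B-cell receptor, to 0 or 1 UMI, and 410 of the 1352 cells held the 1 UMI. Of the other barcodes, 12012 held at least 2 UMIs of Cd79a and fewer than 2 of Siglech; they are called B-lineage barcodes below. A further 626 barcodes with fewer than 2 UMIs of either gene held at least 3 UMIs over 6 NK and T genes (Cd3e, Cd3d, Cd3g, Klrb1c, Ncr1 and Nkg7) and are called NK and T barcodes. Granulocyte and monocyte genes summed to 19803 CPM (UMIs scaled to a common total) in those 626 barcodes, so they may not be NK and T cells alone. Whether few or many of the barcodes held these UMIs was not tested.

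The plasmacytoid cells were sequenced to a median of 5946 UMIs (1140 to 25741) and 2430.5 genes per cell. B-lineage barcodes had a median of 3071 UMIs and NK and T barcodes 5032. Levels are therefore given as CPM of the summed UMIs of a group, and shares of cells also after each cell was thinned to 1000 UMIs.

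**Figure D1:**
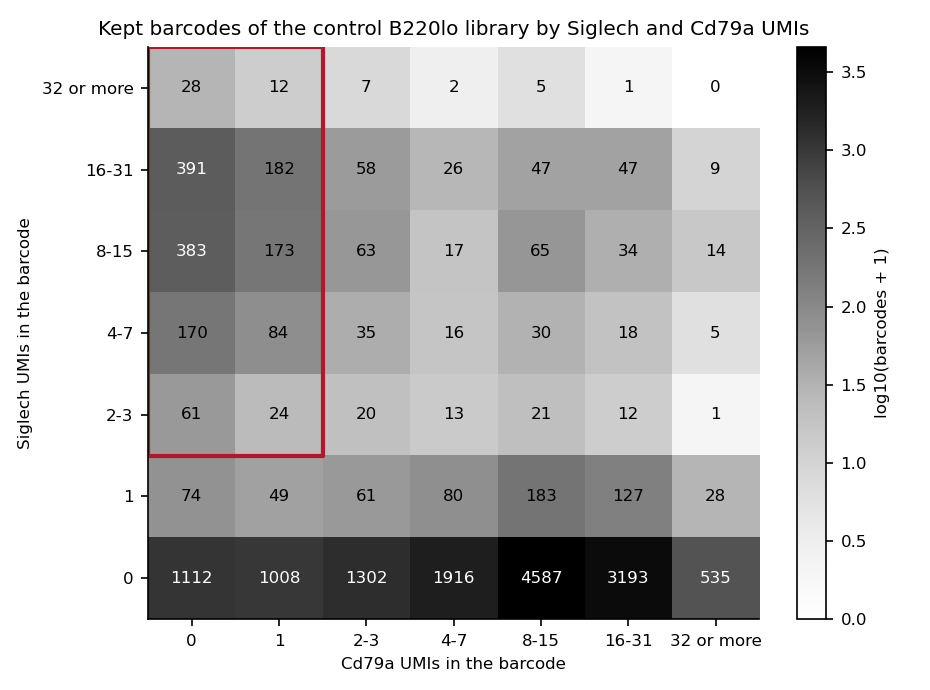
Number of kept barcodes of the control B220lo library by Siglech UMIs (vertical, in bins) and Cd79a UMIs (horizontal, in bins), with shade as log10 of the number plus 1. The red box marks Siglech of 2 or more with Cd79a under 2 and holds 1508 barcodes, of which 1352 also had a Bst2 UMI and no contig. Barcodes with high counts of both genes lie toward the upper right, whose corner is empty.

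The borders of the rule were not empty. Of the 2074 kept barcodes with at least 2 Siglech UMIs, 2002 held Bst2, 1467 of those were under 2 Cd79a UMIs, and 115 of those were dropped for a contig. Just outside the Siglech limit, 55 barcodes with 1 UMI that met every other condition had 1509.8 CPM of Irf8 and 11.9 CPM of Ccr9. Just inside it, the 66 members with 2 or 3 UMIs had 2462 CPM of Irf8 and 148 CPM of Ccr9. Just outside the Cd79a limit, 113 barcodes with exactly 2 UMIs had 2056 CPM of Siglech and 710.2 CPM of Ebf1, against 181 CPM of Ebf1 in members with 1 Cd79a UMI and 80.1 CPM in members with none. The 37 barcodes that lacked only a Bst2 UMI were shallow, with a median of 2891 UMIs, and had 6812 CPM of Tcf4.

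In total 535 barcodes held Siglech, Bst2 and at least 2 Cd79a UMIs. Their median depth was 8274 UMIs, and Siglech, at 1386 CPM, and Cd79a, at 1118 CPM, lay between their levels in plasmacytoid and B-lineage barcodes. A Scrublet doublet score over 0.25 was given to 47.1% of them, to 2.22% of the plasmacytoid cells and to 4.92% of B-lineage barcodes. Because these 535 and the 115 contig-bearing barcodes counted among all other kept barcodes, Siglech stood at 133 CPM there and at 8.12 CPM in B-lineage barcodes. The B-lineage comparison was added after this was seen.

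Known plasmacytoid genes outside the rule were high in the chosen cells. Irf8, a transcription factor needed for dendritic cells, had at least 1 UMI in 99.6% of the cells, with a median of 18 UMIs, against a median of 0 in B-lineage and in NK and T barcodes. Its level was 2975 CPM (2939 to 3011) in plasmacytoid cells, 180.2 CPM in B-lineage barcodes and 142 CPM in NK and T barcodes. Ccr9, the chemokine receptor of gut homing, was at 309 CPM (297 to 321), 5.41 CPM and 1.83 CPM in the same order. Ccr9 was detected in 68.7% of the cells as sequenced and in 24.2% after thinning, against 0.408% of thinned B-lineage barcodes. Tcf4 was at 1819 CPM (1791 to 1847), 184 CPM and 40.0 CPM, and Runx2, a Runt-family factor, at 1212 CPM (1189 to 1235), 18.5 CPM and 70.3 CPM. All 4 genes were higher in the plasmacytoid cells by more than their counting intervals.

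Upstream sequences are shown for 4 of the genes that marked the cells most strongly, because Tcf4 binds E-boxes and these windows carry an E-box of the form CACCTG. Each is the 250 bases before the RefSeq start, on the gene's own strand (RefSeq, GRCm38.p6), with CACCTG or its reverse complement in capitals and, in Siglech, also the Runx motif TGTGGTT in its reverse complement. The 4 windows were picked after the matches had been seen. They lie at chr7:55767934-55768183 (+) for Siglech, chr9:123766961-123767210 (+) for Ccr9, chr7:44225110-44225359 (+) for Klk1 and chr11:114960508-114960757 (-) for Cd300c.
Siglech: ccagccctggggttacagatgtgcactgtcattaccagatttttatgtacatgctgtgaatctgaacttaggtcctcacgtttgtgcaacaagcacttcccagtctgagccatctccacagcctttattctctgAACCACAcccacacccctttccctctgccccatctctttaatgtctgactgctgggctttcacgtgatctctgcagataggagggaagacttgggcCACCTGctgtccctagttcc
Ccr9: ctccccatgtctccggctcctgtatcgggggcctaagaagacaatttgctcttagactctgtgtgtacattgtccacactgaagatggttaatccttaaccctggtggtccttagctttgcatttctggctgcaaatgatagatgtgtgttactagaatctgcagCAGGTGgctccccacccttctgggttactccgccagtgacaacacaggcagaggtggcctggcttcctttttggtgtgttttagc
Klk1: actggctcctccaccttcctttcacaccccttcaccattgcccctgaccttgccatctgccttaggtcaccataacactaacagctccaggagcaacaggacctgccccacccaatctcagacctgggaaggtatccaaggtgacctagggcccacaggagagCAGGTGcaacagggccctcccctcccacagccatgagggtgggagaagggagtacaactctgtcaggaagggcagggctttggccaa
Cd300c: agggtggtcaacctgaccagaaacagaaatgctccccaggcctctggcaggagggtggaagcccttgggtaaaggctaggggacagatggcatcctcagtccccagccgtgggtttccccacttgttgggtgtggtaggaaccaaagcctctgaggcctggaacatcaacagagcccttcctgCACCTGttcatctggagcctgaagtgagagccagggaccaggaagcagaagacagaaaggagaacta
The E-box began 20 bases before the start in Siglech, 85 in Ccr9, 87 in Klk1 and 67 in Cd300c. Windows of 300 bases, from 250 before to 50 after the start, were found for 19 of the 25 genes with the highest ratios, 27 windows in all. On either strand CACCTG occurred in 10 of these 27 windows (37.0%) and in 20.2% of all 32851 windows. The E-box CAGCTG, whose matches are never matches of CACCTG, occurred in 5 of 27 against 16.3%, and any CANNTG, which includes both, in 21 of 27 against 72.3%. TGTGGTT occurred in 1 of 27 against 5.27%, the PU.1 and SpiB core GAGGAAGT in 1 of 27 against 3.20%, and the ETS and IRF composite motif in 0 of 27 against 2.72%. These are letter matches, and the library measured no binding.

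Against all other kept barcodes, 9047 genes reached a mean of 10 CPM over both groups and were counted as tested. Of these, 296 (3.27%) were at least 4-fold higher and 387 (4.28%) at least 4-fold lower in the plasmacytoid cells on the log2 scale with 1 CPM added, and the median log2 ratio was -0.13. Against B-lineage barcodes 412 of 8989 genes (4.58%) were higher and 372 (4.14%) lower, and against NK and T barcodes 477 of 8995 (5.30%) were higher and 424 (4.71%) lower. Against the other barcodes with under 2 Siglech UMIs, 358 of 9062 genes (3.95%) were higher and 404 (4.46%) lower. Of 29 tested plasmacytoid marker genes, a list that holds Siglech and Bst2, 25 were higher than in all other barcodes and none lower. Since the same transcripts chose the cells, these shares only describe the groups. The gene lists were also chosen with earlier results of these data known, so counts over any list below are descriptions too. A gene under 10 CPM in the comparison group was tested only through a higher level in plasmacytoid cells, which fixed its direction.

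The 25 genes with the highest ratios included Siglech, which the rule and the comparison groups had fixed. The 25 had log2 ratios of 3.68 to 4.04 over all other barcodes. Without Siglech, the ratios over B-lineage barcodes were 5.05 for Klk1b27, the lowest, to 7.15 for Grm8, the highest, and all but 2 of the genes were under 10 CPM there. The highest log2 ratio over all other barcodes was that of Klk1, a secreted kallikrein protease, which had 227 CPM (217 to 237) in plasmacytoid cells, 0.644 CPM in B-lineage barcodes and 0.261 CPM in NK and T barcodes. Klk1b27, a close relative at 40.5 CPM whose reads may be shared with it, was also among the 25. Cox6a2, a subunit of mitochondrial cytochrome c oxidase best known from muscle, was at 1972 CPM (1943 to 2001) against 34.6 CPM and 27.2 CPM. Muscle is also the textbook site of Atp2a1, a calcium pump, at 92.0 CPM against 0.695 CPM. Several are receptors: Cd300c at 383 CPM against 1.81 CPM, the collagen receptors Lair1 at 437 CPM against 4.47 CPM and Ddr1 at 82.4 CPM against 0.322 CPM, the growth factor receptor Egfr at 76.2 CPM against 0.305 CPM, the glutamate receptor Grm8 at 309.9 CPM against 1.19 CPM, and the T-cell checkpoint Lag3 at 102 CPM against 1.02 CPM. Others included Ctsl, a lysosomal cathepsin, Ccnd1, a D-type cyclin at 430.3 CPM against 2.95 CPM, Pacsin1, a membrane-bending adaptor at 249 CPM against 2.56 CPM, and Pltp, a phospholipid transfer protein at 343 CPM against 6.07 CPM. The remaining genes of the 25 not described elsewhere were Sh3bgr, Ppfia4, Smim5, Foxr1, Hs3st1, Paqr5 and Havcr1. Each of these genes, Siglech aside, was at least 4-fold higher than in NK and T barcodes. Those barcodes are part of all other barcodes, over which the genes were chosen, so this is a description. All but Cox6a2, Lag3, Lair1 and Pacsin1 were under 10 CPM there, so only the plasmacytoid cells made them tested genes.

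**Figure D2:**
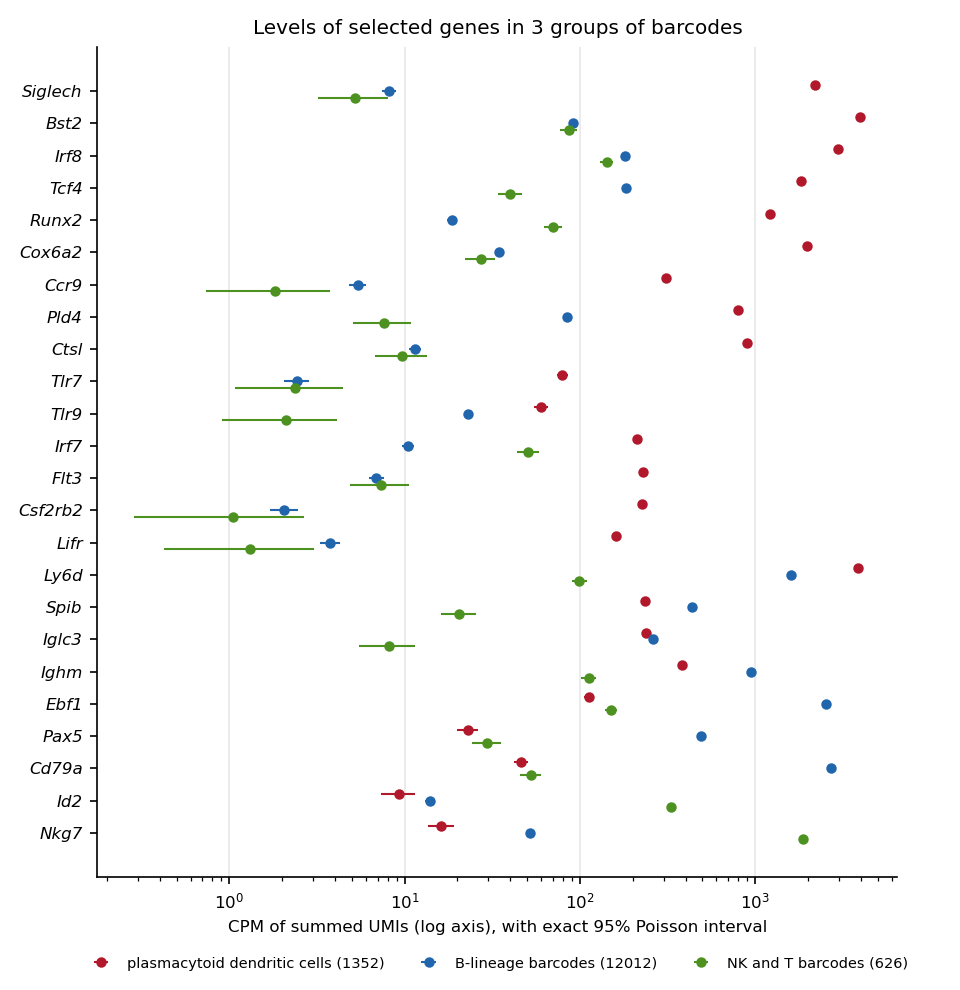
Level of 24 genes chosen to show each role, as CPM of summed UMIs on a log axis, in plasmacytoid dendritic cells (red), B-lineage barcodes (blue) and NK and T barcodes (green), with exact 95% Poisson intervals. Irf8, Tcf4 and Runx2 sit to the right in plasmacytoid cells, Spib and Ly6d are shared with B-lineage barcodes, and Ebf1 and Pax5 lie near the NK and T values. Siglech also sits to the right and Cd79a near the NK and T values, but the cut-offs that defined the groups set both.

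Of the transcription factors known from plasmacytoid cells, some were low in B-lineage barcodes and others were found in both. Of 19 tested, 5 were at least 4-fold higher than in all other barcodes and none was 4-fold lower, against 3.27% and 4.28% of all tested genes. The median log2 ratio was 0.27, against -0.13 over all tested genes. Over B-lineage barcodes 1, Relb, a factor of the NF-kB family, was 4-fold lower, at 9.23 CPM against 42.3 CPM, where 4.14% of all tested genes were. The 5 were Irf8, Tcf4, Runx2, Irf7 and Tsc22d1. Irf7, the factor that drives type I interferon genes, was at 212 CPM (202 to 222), 10.4 CPM in B-lineage barcodes and 50.4 CPM in NK and T barcodes. Tsc22d1 was at 307 CPM against 26.2 CPM in B-lineage barcodes. Bcl11a, a zinc-finger factor used by both lineages, was at 477 CPM against 167 CPM and did not reach 4-fold. Spib, an ETS factor known from plasmacytoid and B cells alike, was lower in plasmacytoid cells, at 234 CPM (224 to 245) against 433 CPM, with 20.4 CPM in NK and T barcodes. Zeb2, a repressor that holds down Id2, was at 471 CPM against 569 CPM.

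Factors of B cells were low, while those of conventional dendritic cells went both ways. Of 10 B-lineage factors, 6 were at least 4-fold lower than in all other barcodes, where 4.28% of all genes were, and none higher. Their median log2 ratio was -3.14. Ebf1, which specifies B cells, was at 111.9 CPM against 2533 CPM in B-lineage barcodes and 150.5 CPM in NK and T barcodes. Pax5, which commits them, was at 22.8 CPM against 493 CPM and 29.5 CPM. Among 5 tested factors of conventional dendritic cells none was 4-fold higher and 1, Irf4, was lower, at 19.0 CPM against 207 CPM in B-lineage barcodes. Klf4, at 22.2 CPM against 6.08 CPM, and Notch2, a receptor that acts in the nucleus, at 78.9 CPM against 35.8 CPM, were higher by less than 4-fold. Klf4 was highest in the 68 members of cluster 17, described below. Id2 was at 9.23 CPM against 14.00 CPM in B-lineage and 331 CPM in NK and T barcodes, and Batf3 was seen as 0.113 CPM, a single UMI.

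Genes for sensing nucleic acids were expressed, while no RNA of interferon alpha or beta was detected. Of 27 tested sensing genes, 6 were at least 4-fold higher than in all other barcodes and 1 was lower, against 3.27% and 4.28% of all tested genes. The median log2 ratio was 0.72. Tlr7, the endosomal receptor for RNA, was at 79.3 CPM (73.6 to 85.4), 2.42 CPM in B-lineage barcodes and 2.35 CPM in NK and T barcodes. Tlr9, the receptor for unmethylated DNA, was at 60.0 CPM (55.0 to 65.3), 23.0 CPM and 2.09 CPM. Unc93b1, which carries both receptors to endosomes, was at 784 CPM, 455 CPM and 59.6 CPM, so B-lineage barcodes shared it more closely. The other genes past 4-fold were Irf7, the endosomal exonuclease Pld4 (802 CPM against 84.5 CPM in B-lineage barcodes), the phosphatase Ptprs (175 CPM against 19.4 CPM) and the cathepsins Ctsl (893 CPM against 11.5 CPM) and Ctsb (1758 CPM against 126 CPM). Ddx58, which encodes the cytosolic RNA sensor RIG-I, was the lower gene, at 4.84 CPM (3.50 to 6.52) against 63.5 CPM. Tmem173, the gene of STING, was at 151 CPM against 45.7 CPM.

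No UMI of Ifnb1 or of the 14 Ifna genes listed was found in the 1352 cells, and 2 other interferon genes, Ifnk and Ifnz, had 1 UMI each. With 3 counts as the limit that a count of 0 allows, the level could be up to 0.338 CPM, or up to 0.222% of cells with a UMI. Of 20 tested interferon-response genes, 2 were at least 4-fold higher than in all other barcodes, Bst2, which the rule had used, and Ifi44, and 1, Rtp4, was lower, with a median log2 ratio of 0.71; over all genes 3.27% were higher. Over B-lineage barcodes 4 of 18 were higher, with Usp18 and Stat2 added, where 4.58% of all genes were. Ifi44 was at 21.3 CPM against 2.68 CPM in B-lineage barcodes. Isg15, an interferon-induced ubiquitin-like protein, was at 40.7 CPM against 16.8 CPM, and Ifit1 at 0.900 CPM against 2.44 CPM. Stat2, which carries the interferon signal, was at 148 CPM against 34.1 CPM. The interferon receptor chains Ifnar1 and Ifnar2 were at 166 CPM against 43.6 CPM and at 459 CPM against 64.8 CPM.

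Of 30 tested genes of the secretory pathway, through which cells export proteins, none was 4-fold higher than in all other barcodes and 1, Derl3, was 4-fold lower. Over all tested genes 3.27% were higher and 4.28% lower. The median log2 ratio of the list was 0.64, and 25 of its 30 genes had a ratio above 0, as did 39.3% of all tested genes. Sec61b, a part of the translocation channel, was at 890.3 CPM against 408 CPM in B-lineage barcodes, and Xbp1, a factor of secretory cells, at 236 CPM against 105 CPM. Mzb1, a chaperone of immunoglobulin assembly, was lower, at 151 CPM against 488 CPM.

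**Figure D3:**
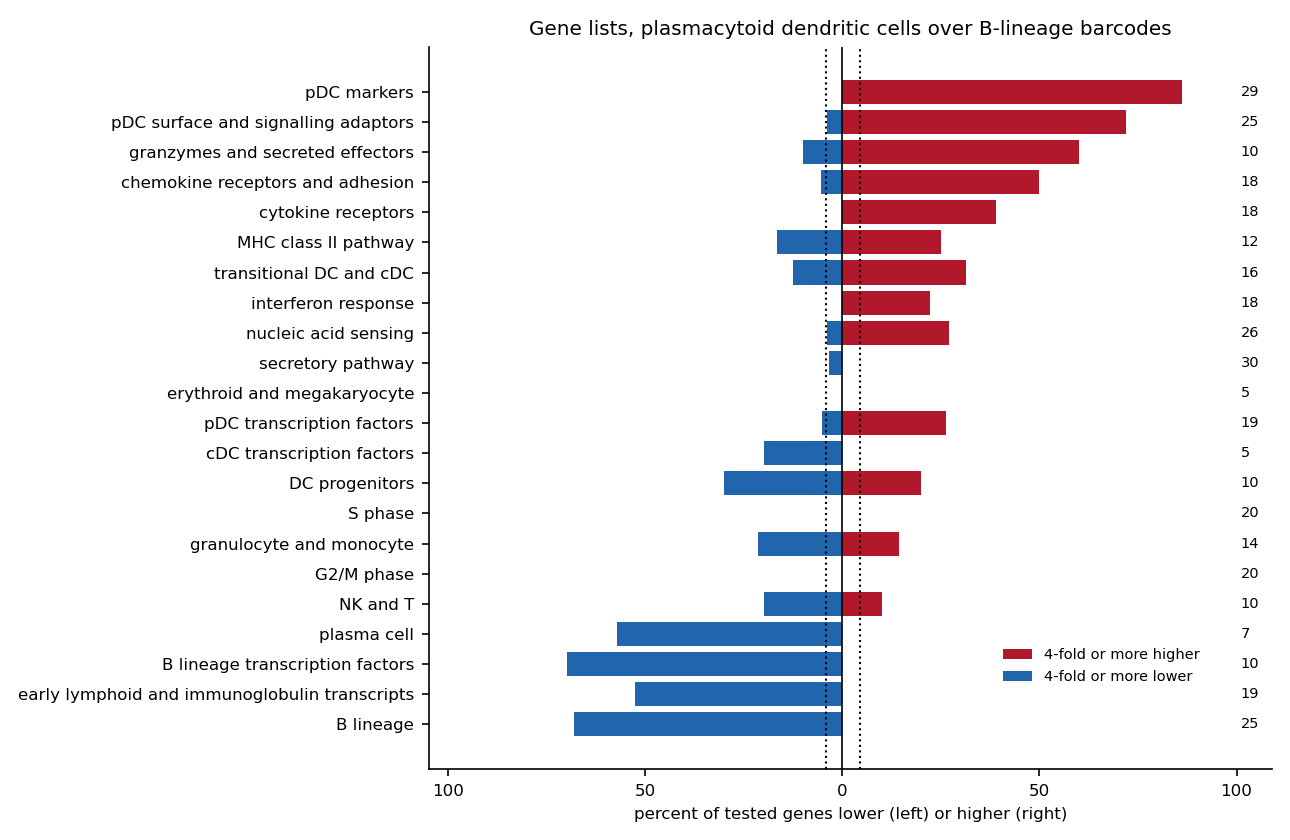
Share of each list's tested genes that were at least 4-fold higher (red, right) or lower (blue, left) in plasmacytoid dendritic cells than in B-lineage barcodes, with the number of tested genes at the right edge and the shares over all genes, 4.58% higher and 4.14% lower, as dotted lines. Lists are ordered by their median log2 ratio; plasmacytoid markers reach furthest to the right, with 25 of 29, and B-lineage lists furthest to the left.

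Cytokine receptors included those that support dendritic cells. Of 19 tested, 6 were at least 4-fold higher than in all other barcodes and none lower, against 3.27% and 4.28% of all tested genes. The median log2 ratio was 1.29. Over NK and T barcodes 5 of 20 were higher and 4 lower, against 5.30% and 4.71% of all genes tested there. Flt3, the receptor for the main dendritic growth factor, was at 227 CPM (218 to 237), 6.90 CPM in B-lineage barcodes and 7.32 CPM in NK and T barcodes. Csf2rb2 and Csf2rb, near-identical beta chains of the IL-3 receptor that can share reads, were at 225 CPM against 2.05 CPM and at 133 CPM against 12.7 CPM. Lifr, the leukemia inhibitory factor receptor, was at 161 CPM against 3.76 CPM, and Il6ra at 45.7 CPM against 5.15 CPM; Ifnar2 was the sixth. Il7r, the IL-7 receptor chain of lymphoid progenitors, was at 250.3 CPM (240.0 to 261) against 306 CPM in B-lineage and 76.8 CPM in NK and T barcodes. Kit was at 7.77 CPM and Csf1r, the macrophage growth factor receptor, at 9.79 CPM.

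Of 18 tested chemokine receptors and adhesion genes, 7 were at least 4-fold higher than in all other barcodes and 1 lower, against 3.27% and 4.28% of all tested genes. The median log2 ratio was 1.15. The 7 included Ccr9, Cxcr3, Itgb7, Itgax and Selplg. Over NK and T barcodes 1 of 18 was higher and 2 were lower, against 5.30% and 4.71% of all genes tested there. The median log2 ratio was then -0.42, and the list summed to 3752 CPM in plasmacytoid cells and 3899 CPM in NK and T barcodes. Itgb7, the partner chain of gut-homing integrins, was at 197 CPM, 11.7 CPM in B-lineage barcodes and 130.4 CPM in NK and T barcodes. Cxcr3, a chemokine receptor of activated T cells, was at 64.6 CPM, below the 123 CPM of NK and T barcodes. S1pr1, the receptor used to leave tissues, was the gene lower than in all other barcodes. It was at 1.69 CPM (0.945 to 2.78) against 40.2 CPM in B-lineage barcodes.

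Among surface molecules and adaptors, 18 of 25 tested genes were at least 4-fold higher than in all other barcodes and Cd2 was lower. Over all tested genes 3.27% were higher and 4.28% lower. The median log2 ratio of the list was 2.96. Its 30 genes were chosen with earlier results of these data known, so these values only describe the cells. Tyrobp, or DAP12, the adaptor through which Siglech signals, was at 3888 CPM (3847 to 3929), 120.0 CPM in B-lineage barcodes and 1526 CPM in NK and T barcodes. Klrd1, or CD94, a receptor chain of NK cells, was at 287 CPM, 14.9 CPM and 479 CPM and was the only 4-fold higher gene of the NK and T list. Ly6d, an early lymphoid surface protein, was at 3855 CPM against 1605 CPM in B-lineage barcodes. The C-type lectins Clec10a, Cd209d, Cd209a and Clec9a were at 207, 110.0, 100.3 and 62.0 CPM against 1.05, 0.458, 0.424 and 0.813 CPM in B-lineage barcodes. Clec9a is best known from conventional type 1 dendritic cells, and Xcr1, a receptor that defines those cells, had 0 UMIs, which allows up to 0.338 CPM by the same limit of 3 counts.

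Antigen-presentation genes went both ways. Of 12 tested MHC class II pathway genes, 2 were at least 4-fold higher than in all other barcodes, the peptide-loading genes H2-DMa and H2-DMb1. Another 2 were lower, H2-Ob and Cd40, where 3.27% of all genes were higher and 4.28% lower. The median log2 ratio of the list was 1.30. The number higher was 6 for the members in cluster 5, described below, and 7 for all barcodes of that cluster. It was 1 for members with no Cd79a UMI, without members holding UMIs of other lineages, or with 10 CPM added. For all barcodes of cluster 5 and for the Cd79a and other-lineage settings, the members left out were counted in the comparison group. H2-Aa, an MHC class II chain, was at 1302 CPM (1278 to 1325) against 352 CPM in B-lineage barcodes, and Cd74, the invariant chain, at 3879 CPM against 2478 CPM. Cd40, a co-stimulatory receptor, was at 1.58 CPM (0.861 to 2.64) against 48.8 CPM, and Cd80 and Cd86, its partners in T-cell stimulation, were at 0.338 CPM and 5.63 CPM. Of 20 effector genes listed, 11 were tested. Of these, Ctsl, Grn, Klk1, Klk1b27 and Pltp were 4-fold higher and Gzma and Ccl5 lower. Klk1b27 was at 2.17 CPM in all other barcodes, so only its level in plasmacytoid cells made it a tested gene. Gzmb, a granzyme known from human plasmacytoid cells, was at 1.80 CPM (1.03 to 2.92).

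Genes of conventional and transitional dendritic cells, which can share a gate and a progenitor with plasmacytoid cells, were mixed. Of 26 genes listed, 16 were tested. Of these, 5 were at least 4-fold higher than in all other barcodes (Cd209a, Clec9a, Sirpa, Itgax and Clec10a) and 3 were lower (Cd81, Lyz2 and Ltb). Over all tested genes 3.27% were higher and 4.28% lower. The median log2 ratio of the list was 0.83. Its genes summed to 2505 CPM over all the plasmacytoid cells and to 6638 CPM in the members of cluster 17, described below. In the members of clusters 5, 7 and 18 they summed to 1730, 2884 and 1751 CPM. Itgax, or CD11c, was at 125 CPM in plasmacytoid cells and 126 CPM in NK and T barcodes, and Sirpa, an inhibitory receptor of myeloid cells, at 120.4 CPM against 5.74 CPM in B-lineage barcodes. Cd81, a tetraspanin, was at 5.63 CPM against 136 CPM, and Axl, a receptor kinase of transitional cells, at 0.338 CPM, which is 3 UMIs. Of 11 tested progenitor genes, Flt3 and Lgals1 were 4-fold higher and Mpo, Rag1 and Rag2 lower. Lgals1, or galectin-1, was at 2719 CPM against 268 CPM in B-lineage barcodes, and Cd34, a progenitor surface protein, at 6.64 CPM.

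Of 25 B-lineage genes, 17 were at least 4-fold lower than in all other barcodes, where 4.28% of all genes were, and none higher. The median log2 ratio was -3.48. The 17 included Cd79a, which the rule had limited. The rule had also left out barcodes with an immunoglobulin contig, which bears on Ighm, Ighd, Igkc and Iglc2 of this list. For 14 of the 25 the counting interval overlapped that of NK and T barcodes. Of the 20 with a mean of at least 10 CPM over these 2 groups, 9 overlapped, against 48.6% of all 8995 genes tested there. Among those that overlapped, Vpreb3 of the surrogate light chain was at 70.9 CPM against 77.3 CPM, and Igkc, the kappa constant region, at 24.9 CPM against 21.4 CPM. Cd79a was at 46.1 CPM against 52.5 CPM, but both groups had been limited to fewer than 2 UMIs of it. Jchain, from another list, was at 46.7 CPM against 42.3 CPM. In B-lineage barcodes Vpreb3 was at 2255 CPM, Igkc at 564 CPM and Jchain at 1707 CPM. The part of free RNA in the levels of plasmacytoid cells was not tested.

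Of the same 20 genes, 10 were above NK and T barcodes with no overlap of the intervals, against 27.7% of all genes tested, and 1, Ebf1, was below, against 23.6%. Ighm, the mu heavy-chain constant region, was at 384 CPM (372 to 398), 112.4 CPM in NK and T barcodes and 940.3 CPM in B-lineage barcodes. Dntt, which adds bases at immunoglobulin joints, was at 181 CPM (172 to 190.3), 39.2 CPM and 151 CPM, and was detected in 51.5% of the cells against 4.95% of NK and T barcodes (15.3% against 1.60% after thinning). Its partners in recombination were low, with Rag1 at 9.79 CPM, 6.27 CPM and 129.8 CPM. Blnk, an adaptor of the B-cell receptor, was at 301 CPM, 35.0 CPM and 542 CPM, and Ly86 at 555 CPM, 16.98 CPM and 179 CPM. The part of free RNA in these levels was not tested.

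The lambda constant regions went separate ways. Iglc3 was at 237 CPM (227 to 247) in plasmacytoid cells, 262 CPM in B-lineage barcodes and 8.10 CPM in NK and T barcodes. Iglc2 was at 14.97 CPM (12.5 to 17.7), 459 CPM and 11.0 CPM, and Iglc1 at 6.64 CPM, 198 CPM and 3.92 CPM. These genes are close copies, so reads may be split between them and the values are uncertain. The rule had also left out barcodes with an immunoglobulin contig, which bears on these levels. At least 1 UMI of Iglc3 was found in 47.8% of the cells and in 4.79% of NK and T barcodes (19.2% against 0.799% after thinning).

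The contig rule had removed 115 of 1467 otherwise matching barcodes, or 7.84% (6.52% to 9.33%). The share was 6.07% (4.33% to 8.24%) in NK and T barcodes and 73.1% in B-lineage barcodes. The removed barcodes had a median of 3 UMIs per contig, as did NK and T barcodes, against 16 in B-lineage barcodes. Of their 57 heavy-chain contigs, 31 (54.4%) had a junction also seen in another barcode, against 555 of 8874 (6.25%) in B-lineage barcodes. Siglech was at 2219 CPM, Irf8 at 2801 CPM and Ccr9 at 332 CPM in the removed barcodes. Ebf1 was at 507 CPM, Pax5 at 87.5 CPM against 22.8 CPM in the members, and the NK and T list at 1281 CPM against 494 CPM. A doublet score over 0.25 was given to 12.2% of them, against 2.22% of the members.

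Most UMIs of globin and neutrophil genes came from few cells, while 50% of the Igkc and Jchain UMIs took 88 and 122 cells. Globin genes gave 12251 UMIs in all, more than 50% of them in 1 cell, and 2 cells held 10 or more. S100a8 and S100a9, neutrophil genes, gave 10243 UMIs, more than 50% of them in 2 cells, and 5 cells held 10 or more. This signal was much lower in the 2 main clusters described next. The granulocyte and monocyte list summed to 2319 CPM over all the cells, to 311 CPM in cluster 5 and to 313 CPM in cluster 7, and the erythroid and megakaryocyte list to 1409 CPM, 27.7 CPM and 25.8 CPM. Of 14 tested granulocyte and monocyte genes, 8 were at least 4-fold lower than in all other barcodes, where 4.28% of all genes were, and none higher. Over B-lineage barcodes 3 of 14 were lower and 2 higher, against 4.14% and 4.58% of all genes tested there. The median log2 ratio of the list was then -0.64. The 23 NK and T markers summed to 494 CPM against 454 CPM in B-lineage barcodes, with Klrd1 at 287 CPM the largest part, and 14 of the 23 were under 5 CPM. The 6 genes that defined NK and T barcodes summed to 30.1 CPM. Of 10 macrophage markers, 9 were under 3 CPM, and Prdm1, a plasma-cell factor, had 0 UMIs. Leaving out the cells with 10 or more UMIs over the globin genes, S100a8, S100a9, Ngp and Camp left 1344 cells. These had 296 genes higher and 394 lower than all other barcodes.

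The 1352 cells were not uniform. When all kept barcodes of the library were clustered into 25 groups, 825 of the cells (61.0%) fell in cluster 5, 364 (26.9%) in cluster 7, 77 (5.70%) in cluster 18, 68 (5.03%) in cluster 17 and 18 elsewhere. The clusters were built from these genes, so the values that follow describe them. Clusters 5 and 7 also held 275 and 183 of the barcodes with Siglech, Bst2 and at least 2 Cd79a UMIs.

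Of the 30 plasmacytoid marker genes, 28 were higher in cluster 5 than in cluster 7. Over all tested genes 42.0% were higher in cluster 5. Of the sensing genes 19 of 28 were higher there, and of the secretory genes 14 of 30. Siglech was at 3017 CPM against 1252 CPM in cluster 7, Ccr9 at 453 CPM against 134 CPM and Klk1 at 415 CPM against 14.98 CPM. Antigen-presentation genes differed widely, with Cd74 at 6769.9 CPM against 507 CPM and H2-Aa at 2275 CPM against 175 CPM, and 13 of 15 genes of that list higher in cluster 5. Irf7 was at 319 CPM against 78.7 CPM, Tlr7 at 104 CPM against 42.1 CPM, Cd4 at 78.7 CPM against 5.10 CPM and Iglc3 at 427 CPM against 24.2 CPM. Irf8 was nearly level, at 3029 CPM and 3159 CPM, and so was Runx2, at 1049 CPM and 1024 CPM.

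Cell-cycle transcripts were higher in cluster 7. All 20 G2/M genes and all 20 S-phase genes were higher than in cluster 5. The G2/M list summed to 6426 CPM against 448 CPM, and Mki67, a marker of dividing cells, was at 668 CPM against 44.6 CPM. Their median depth was 7936 UMIs against 5623. Ly6d was at 6549.6 CPM against 2758 CPM, Flt3 at 262 CPM against 183 CPM, and Blk, a B-cell kinase, at 116 CPM against 24.4 CPM. Over all plasmacytoid cells, set against all other barcodes, 0 of 20 S-phase genes and 0 of 20 G2/M genes passed 4-fold. Of all tested genes 3.27% were higher and 4.28% lower. The median log2 ratios of the S-phase and G2/M lists were -0.41 and -0.76. Over NK and T barcodes the medians were -0.04 and 0.45. At least 3 G2/M UMIs were found in 51.3% of the plasmacytoid cells and in 50.7% of B-lineage barcodes, which were shallower.

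**Figure D4:**
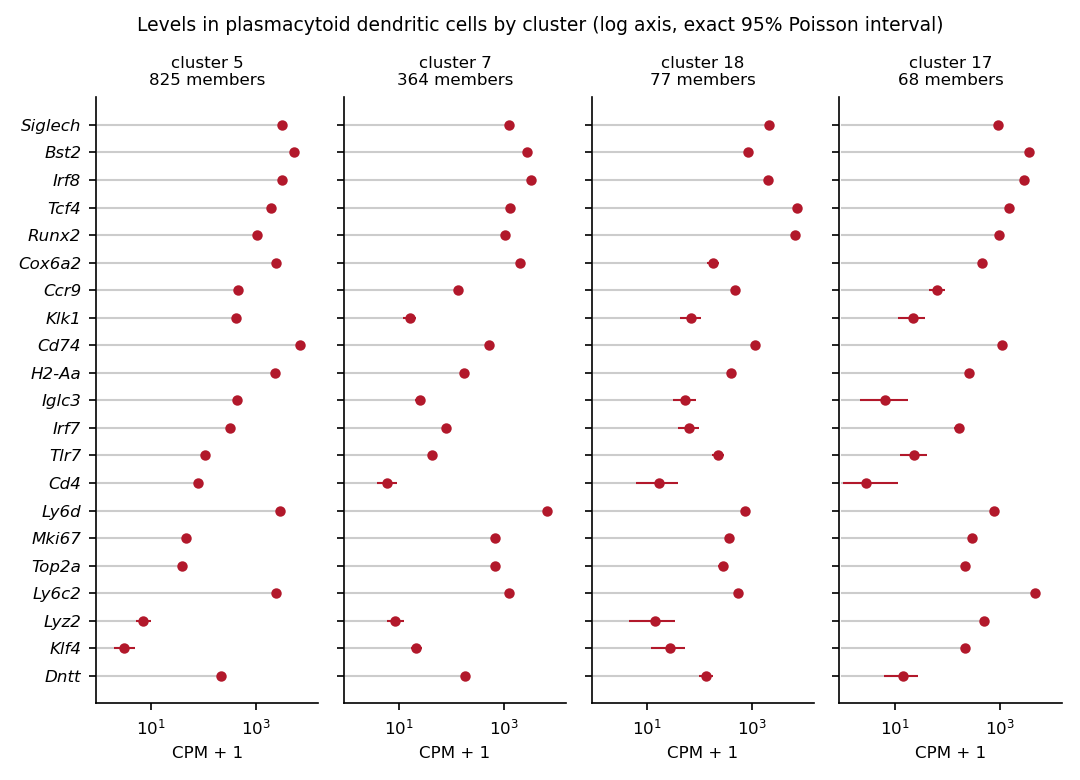
Level of 21 genes in the plasmacytoid dendritic cells of each of 4 clusters, as CPM plus 1 on a log axis with exact 95% Poisson intervals. Irf8 lies between 2020 and 3159 CPM in all 4; Cd74, H2-Aa, Klk1 and Iglc3 are highest in cluster 5, Mki67, Top2a and Ly6d in cluster 7, Tcf4 and Runx2 in cluster 18, and Ly6c2, Lyz2 and Klf4 in cluster 17.

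The 77 cells in cluster 18 stood apart in RNA composition. Their median depth was 3420 UMIs, ribosomal protein genes gave 2.99% of their UMIs against 16.1% over all the plasmacytoid cells, and the nuclear RNA Malat1 was at 13594 CPM against 4994 CPM. Tcf4 was at 7241 CPM, Runx2 at 6477 CPM and Grm8 at 1505 CPM in these cells, while Cox6a2 was at 184 CPM and Bst2 at 836 CPM. The part of RNA quality in these levels was not tested.

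The 68 cells in cluster 17 were part of 212 barcodes there, whose leading genes were mostly those of monocytes and macrophages, among them Lyz1, Fn1 and C1qb. In the 68 cells these 3 genes had 0, 2 and 0 UMIs, and the macrophage list summed to 13.3 CPM against 19.6 CPM over all the plasmacytoid cells. Others of the leading genes were at higher levels in the 68 cells than over all the plasmacytoid cells, with Lgals3 at 973 CPM against 92.4 CPM, Plbd1 at 89.5 CPM against 9.12 CPM and Csf1r at 60.9 CPM against 9.79 CPM. Ly6c2, the Ly6C antigen, was at 4558 CPM against 2001 CPM over all the plasmacytoid cells, Ccr2 at 377 CPM against 80.4 CPM, Ms4a6c at 588 CPM against 120.2 CPM and Klf4, a monocyte factor, at 215 CPM against 22.2 CPM. Zbtb46, a factor of conventional dendritic cells, was at 41.9 CPM against 3.49 CPM. Siglech was lower, at 912 CPM, and so were Ccr9 at 62.8 CPM, Ly6d at 765 CPM and Dntt at 13.3 CPM. Lyz2 was at 499 CPM in these cells and between 6.22 and 13.1 CPM in the other 3 clusters.

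Cells with and without a UMI of a single gene also differed in other genes, with no test. The 566 cells with a UMI of Klra17, a Ly49 receptor, had 360.5 CPM of Klk1 and 2652 CPM of Ly6d, against 141 and 4627 CPM in the 786 without, at median depths of 5834 and 6037.5 UMIs. The 236 cells with a UMI of Cd4 (17.5%) had 530.1 CPM of Klk1 and 499.7 CPM of Ccr9, against 168 and 272 CPM in the others. The 423 cells without a Ccr9 UMI had 412 CPM of Mki67 and 644 CPM of H2-Aa, against 255 and 1629.7 CPM in the 929 with it, and Irf8 differed little, at 3001 and 2961 CPM. Klk1, Ccr9, Cd4 and H2-Aa were also higher in cluster 5 than in cluster 7, and Mki67 and Ly6d lower. How far these splits follow the clusters was not tested.

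After thinning, 1567 genes were frequent enough to rank by the variance of their UMIs across cells over the mean, a measure that is near 1 for counting noise. The median was 1.05, and 39 genes were above 2. The 10 highest included Hbb-bs, Hbb-bt, S100a8, S100a9, Ngp and Camp, whose UMIs came mostly from 1 or 2 cells each. They also included Cmss1, Lars2, AY036118 and Cd74, whose ratio was 6.29. Ebf1 followed at 4.36, with most of its UMIs in 11 cells, and Ly6d at 4.16. Irf8 was at 1.12, Ccr9 at 1.23 and Siglech, although truncated by the rule, at 1.52.

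The same rule found almost no cells in the Kit+ libraries. It found 1 of 11891 kept barcodes in the control, 0 of 14915 in the Mll3/4 deleted library, which allows a share of up to 0.0201% by the limit of 3 counts, and 2 of 12081 in the Mll3/4SI library. With every barcode thinned to 1000 UMIs the numbers were 1, 0 and 1, against 910 of 16329 in the B220lo library. The control Kit+ cell had 2473 UMIs with 3 of Siglech and 8 of Irf8. In the Mll3/4SI library 1 cell had 3807 UMIs with 20 of Siglech and 15 of Irf8, and the other had 40807 UMIs with 4 of Siglech and 112 of the granulocyte enzyme gene Mpo. The gate differed between the B220lo and Kit+ libraries, so sort and cell type cannot be told apart. With 1 library for each genotype, these libraries give no comparison of plasmacytoid cells between genotypes. Of the members' barcodes, 25, 26 and 15 also occurred as barcodes in the control, deleted and SI Kit+ libraries. These are 1.85%, 1.92% and 1.11% of the members, against 1.68%, 2.05% and 1.48% of all kept barcodes of the B220lo library.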

How the data were processed

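Per the submitters' processing notes the reads were processed with Cell Ranger 7.1.0 and mm10, and per the labels the libraries were made with a 10x Genomics 5′ version 2 kit. The deposited matrices hold UMI counts per gene and barcode, not normalized, for 32285 genes. Assembled contigs were deposited with UMI and read counts. Levels are CPM of summed UMIs. Ratios are log2 with 1 CPM added, genes with a mean of at least 10 CPM count as tested, and 4-fold is the call. Intervals are exact Poisson or Clopper-Pearson 95% intervals. A count of 0 is given a limit of 3 counts. With 1 library per group edgeR's test could not be used; edgeR 4.0.16 gave only TMM factors. Cells were clustered with scanpy 1.11.5 and leidenalg 0.10.2 (2000 variable genes, 30 components, 15 neighbours, resolution 1.0). Scrublet's own threshold marked 0 barcodes and had not worked, so a score of 0.25 was used. Doublets were not removed. The 25 highest and 10 lowest ratios were named by a rule that left out immunoglobulin, ribosomal, mitochondrial, unnamed and Y-linked genes. The members and gene lists were chosen with earlier results of these data known. Gene positions are from GENCODE M21 (GRCm38). Some genes of the lists are not reported here. The ratio step was tested on simulated data. Total UMIs were 85445426 in the B220lo library and 130424242 to 166327773 in the Kit+ libraries.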

Additional observations from a re-analysis of the deposited data

How the results depend on the processing

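Of 700 values of the 35 named genes under the 20 alternatives, 424 stayed within counting error and 0 changed direction; these genes had been chosen for extreme ratios, so their direction is no sign of stability. The plasmacytoid share was 9.54% with at least 2000 UMIs per barcode, 5.77% with Cd79a at 0 UMIs, 8.98% with contig-bearing barcodes kept, 6.38% without members holding a UMI of Cd3e, Nkg7, S100a8 or Hbb-bs, 7.18% for all cells of cluster 5 and 5.05% for members in cluster 5. Genes higher numbered 158 with 10 CPM added and 144 at a mean of at least 50 CPM, and genes lower 215 and 165, with 639 lower without a filter, since these settings change how many genes can pass. For members in cluster 5 genes lower numbered 696, and the cause was not tested. MHC class II genes 4-fold higher numbered 1 with Cd79a at 0, 1 without members holding other-lineage UMIs, 1 with 10 CPM added, 7 for all cells of cluster 5 and 6 for members in it. With Cd79a at 0, without other-lineage UMIs and for all cells of cluster 5, the members left out were moved into the comparison group. The cause of the differences in number was not tested. The Mll3/4SI library had 1 cell after thinning. TMM factors moved the median gene by 0.11 and centring by 0.13 on the log2 scale. The alternatives for members in cluster 5, for cells rich in globin or neutrophil UMIs and for barcodes with under 2 Siglech UMIs were chosen after seeing the data. No paired analysis was possible because each group was 1 library. A share of cells near 0.222% is the limit of detection in 1352 cells.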

Other observations

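The 10 genes with the lowest ratios over all other barcodes included Cd79a, which the rule had limited, Ms4a1, Jchain, Vpreb3, Car1, Col5a3, Klhl14, Dok3 and Ebf1. Several are B-cell genes. Ms4a1, which encodes CD20, was at 8.89 CPM in plasmacytoid cells, 391 CPM in B-lineage barcodes and 11.2 CPM in NK and T barcodes, and Dok3, an adaptor that restrains B-cell receptor signalling, at 15.9, 437 and 30.6 CPM. Car1, an erythroid carbonic anhydrase, had 3 UMIs over the 1352 cells, 32.4 CPM in all other barcodes and 12.5 CPM in B-lineage barcodes.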
